A study of Homo sapiens with 6 samples.

Results

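Keratins of liver and biliary epithelium were examined in Huh7, an established cell line of human hepatocellular carcinoma. The set was given as 10 gene symbols, KRT7, KRT8, KRT10, KRT17, KRT18, KRT19, KRT20, KRT23, KRT80 and KRT81, and takes in each probe set that carries one of these symbols alone in the platform annotation. Probe sets were found for 8 of the 10 genes, 16 probe sets in all, out of 18132 genes and 49293 probe sets. KRT17 and KRT81 are not analysed here. The 10 genes were named with the differences between these arrays already known, so their values are given as a description and no test is drawn from them.

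Transcripts were measured on 6 one-colour oligonucleotide arrays, 3 of control Huh7 cells and 3 of Huh7 cells labelled as silenced for the potassium channel KCa3.1, all in logarithmic growth. The labels give neither the silencing method nor what the control cells received. They do not say whether the 3 samples of a group were separate cultures, so all p-values rest on a spread that may be technical. The values are log2 RMA values centred for each probe set, and the 6 values of a probe set need not average 0. They show how a transcript differs between arrays and not how abundant it was, so the presence of hepatocyte or keratin transcripts in these cells could not be checked as a level. A lower value in bulk RNA cannot be told apart into fewer cells that make the transcript and less transcript per cell.

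KCNN4, the gene of KCa3.1, was not lower in the silenced-labelled arrays. It was at -0.006, 0.126 and -0.073 in control replicates 1 to 3 and at -0.055, 0.089 and 0.011 in silenced replicates 1 to 3, with a 95% interval of the log2 difference from -0.16 to 0.16. The RNA values of the target therefore do not bear out the label. Centred values do not show whether its probe sets read above background, and these arrays do not measure protein. Whether the channel was silenced thus cannot be told here, and every direction is given between arrays as labelled. Over all genes 13.3% passed the threshold, a Benjamini-Hochberg adjusted p under 0.05 in limma, and the median log2 difference was -0.006.

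Keratins build the intermediate filaments of epithelial cells as obligate pairs of one type I and one type II chain. Hepatocytes make a single pair, KRT8 of type II with KRT18 of type I, while bile duct cells add KRT7 and KRT19, which is why these last genes mark biliary and progenitor-like cells in liver. The filaments give mechanical strength and protect hepatocytes from stress, and they are anchored at desmosomes through linker proteins.

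In the silenced-labelled arrays 7 of the 8 measured keratins had a lower mean than in the control arrays, and KRT20 had a higher one, where 52.2% of all genes had a lower mean. The log2 differences ran from -1.53 for KRT23 to 0.10 for KRT20, with a median of -0.223. KRT7, KRT18, KRT19 and KRT23 passed the threshold of the fit over all genes as lower, 4 of 8, and none passed as higher (0 of 8). Over all genes tested, 6.19% passed as lower and 7.14% as higher. Control and silenced-labelled values were fully separated for 6 of the 8 keratins, all with the silenced-labelled arrays lower, and 14.4% of all genes were separated in that direction and 15% in the other. Counted by probe set, 5 of 16 passed as lower and none as higher (0 of 16, with 10 of 16 at an unadjusted p under 0.05), against 4.85% and 5.82% of all probe sets. The 5 became 4 without control replicate 1 and 3 without any other single array. The groups were separated, with the silenced-labelled arrays lower, in 14 of the 16 probe sets and in 13% of all probe sets. Since the genes were chosen on this contrast, nothing is read from these shares.

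**Figure D1:**
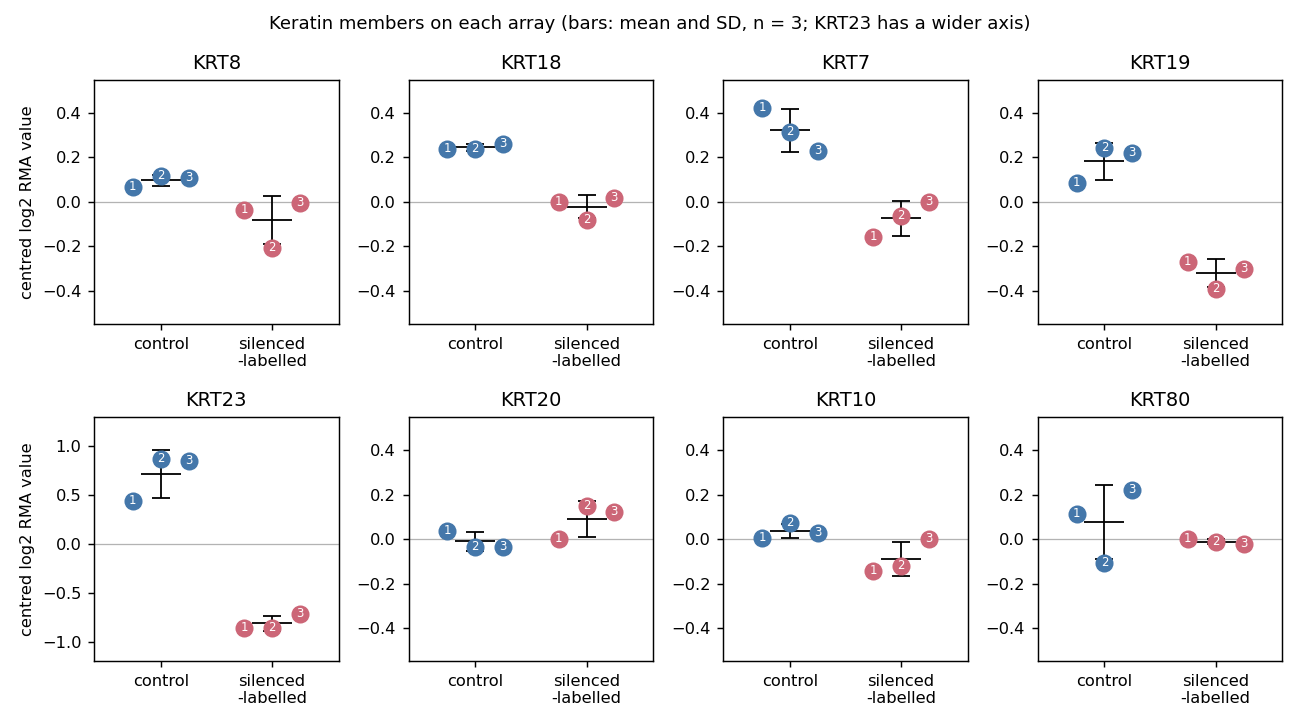
Centred log2 RMA values (vertical axis) of the 8 measured keratins on each array, with control arrays in blue and silenced-labelled arrays in red; digits are replicate numbers, the long bar is the mean and the whiskers are the SD of 3 arrays. The groups are separated for KRT8, KRT18, KRT7, KRT19, KRT23 and KRT10 and overlap for KRT20 and KRT80; KRT23 is drawn on a wider axis.

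KRT18, the type I chain of the hepatocyte pair, was at 0.236, 0.238 and 0.262 in the control arrays. It was at 0.001, -0.080 and 0.017 in the silenced-labelled arrays. All 3 silenced-labelled arrays lay below all 3 controls, and the controls differed from each other by little, with a mean of 0.245 ± 0.015 against -0.021 ± 0.051 (SD, n = 3 each). The log2 difference was -0.27 (SE 0.054), which is 1.2-fold lower. It passed the threshold of the fit over all genes. Both of its probe sets were lower, by 0.26 and 0.27 on the log2 scale.

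KRT8, the type II partner of KRT18, was at 0.069, 0.115 and 0.106 in the control arrays. It was at -0.036, -0.206 and -0.007 in the silenced-labelled arrays. The groups did not overlap, but silenced replicate 2 lay well below the other two. The means were 0.097 ± 0.025 and -0.083 ± 0.108 (SD, n = 3 each). The log2 difference was -0.18 (SE 0.065) and did not pass the threshold, and it was -0.12 without silenced replicate 2.

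The 8 probe sets of KRT8 behaved alike. Their log2 differences ran from -0.244 to -0.133, with a median of -0.172, and in all 8 of them the groups did not overlap and silenced replicate 2 was the lowest of its group. None of the 8 passed the threshold of the fit over probe sets (0 of 8), with unadjusted p-values in limma from 0.017 to 0.093. Of all probe sets 4.85% passed as lower, and 13% had separated groups in that direction. Probe sets of one gene read the same RNA samples and are not replicates of the condition. All 10 probe sets of KRT8 and KRT18 are of the kind marked x, whose probes can match other transcripts, and both genes have many processed pseudogenes, so the share of their signal that comes from related sequences is unknown. Of the 16 keratin probe sets 13 held an exact 0 on at least 1 array, among them 5 probe sets of KRT8 in silenced replicate 3. A probe set of KRT8 held it in silenced replicates 1 and 3, and values tied in this way can make a group look tighter than it was. The rest held it on 1 array only, where it ties no values of a group.

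**Figure D2:**
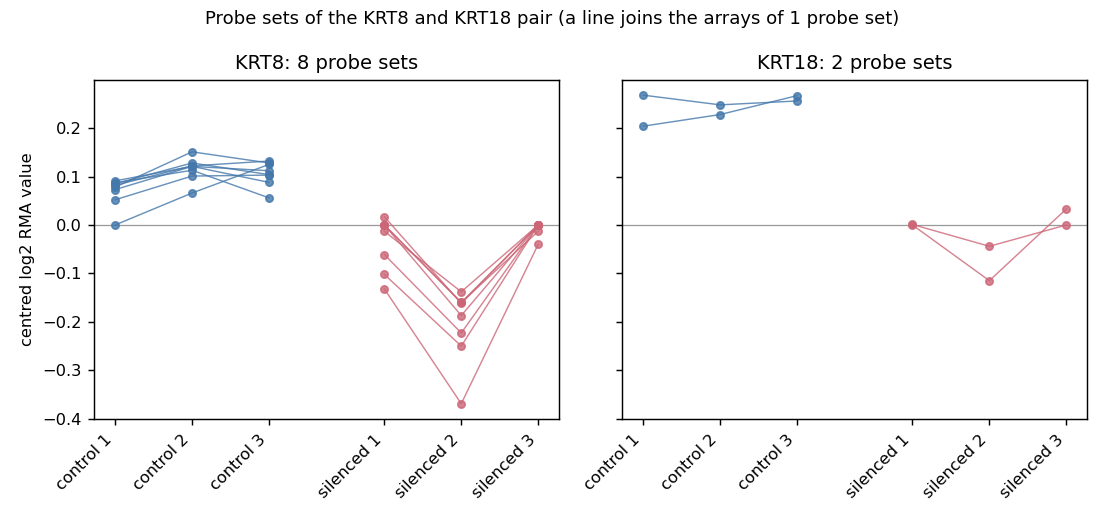
Centred log2 RMA values (vertical axis) of the 8 probe sets of KRT8 (left) and the 2 of KRT18 (right) on the 6 arrays; each line joins the values of 1 probe set within a group, and the arrays of a group have no order. All probe sets of KRT8 dip in silenced replicate 2, and the KRT18 probe sets have control values between 0.204 and 0.268.

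The difference was smaller for KRT8 than for KRT18, but their 95% intervals overlapped, from -0.33 to -0.03 and from -0.39 to -0.14, and the contrast between the chains was not tested. Subtracting the KRT18 value from the KRT8 value gave -0.167, -0.122 and -0.156 in the control arrays. The same subtraction gave -0.037, -0.127 and -0.023 in the silenced-labelled arrays. Silenced replicate 2 fell within the range of the controls and the other two silenced-labelled arrays lay above it, with a mean change of 0.086 on the log2 scale. Because the values are centred, this describes how the balance of the pair differed between arrays and not the balance itself.

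The biliary keratins KRT7 and KRT19 were both lower. Their differences were larger in size than those of KRT8 and KRT18, and that contrast between genes was not tested. KRT7, a type II chain of ductal epithelia, was at 0.422, 0.313 and 0.231 in the control arrays. It was at -0.157, -0.065 and 0.000 in the silenced-labelled arrays. The groups were well apart, with a log2 difference of -0.40 (SE 0.069, 1.32-fold lower), which passed the threshold. KRT7 was read by 1 probe set.

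KRT19, the small type I chain of bile ducts, was at 0.086, 0.244 and 0.218 in the control arrays. It was at -0.271, -0.392 and -0.302 in the silenced-labelled arrays. The gap between the groups was wider than the spread inside either, with means of 0.182 ± 0.085 and -0.322 ± 0.063 (SD, n = 3 each). The log2 difference was -0.50 (SE 0.064, 1.42-fold lower) and passed the threshold. KRT19 too was read by 1 probe set.

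KRT23, a type I keratin known from gastrointestinal and liver tumour cells, had the largest difference of the family. It was at 0.441, 0.867 and 0.847 in the control arrays and at -0.857, -0.858 and -0.719 in the silenced-labelled arrays. Control replicate 1 was the lowest control and still lay more than 1 log2 unit above every silenced-labelled array. The log2 difference was -1.53 (SE 0.110), which is 2.89-fold lower, and it held rank 9 from the bottom among the 18132 genes. The next largest difference among the members, that of KRT19, held rank 264.

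The other 3 measured members showed smaller differences, and none of them passed the threshold. KRT10, the type I chain of differentiating epidermis, was at 0.007, 0.071 and 0.030 in control and at -0.144, -0.121 and just under 0 in silenced-labelled arrays. Its groups were separated by a narrow margin, and the 95% interval of its difference ran from -0.26 to 0.01. KRT80, a type II keratin of many epithelia, was at 0.113, -0.106 and 0.220 in control and at 0.000, -0.014 and -0.020 in silenced-labelled arrays. Its controls spread on both sides of the other group, with an interval from -0.27 to 0.10. KRT20, the type I keratin of intestinal epithelium, was at 0.039, -0.035 and -0.034 in control and at 0.000, 0.151 and 0.121 in silenced-labelled arrays. It was the one measured member with a higher mean, its groups overlapped, and its interval ran from -0.04 to 0.24.

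Type I and type II chains were on both sides of the threshold. Of the 5 measured type I members 3 passed as lower, and of the 3 measured type II members 1 did, beside 6.19% of all genes, and nothing is read from these counts of chosen genes. KRT18 is the exception to the chromosomal order of the family, since it lies beside KRT8 among the type II genes on chromosome 12, while the other type I members lie on chromosome 17. Members that passed had neighbours that did not. KRT23 stands between KRT20 and KRT39 in gene order, whose log2 differences were 0.10 and -0.08, and KRT19 stands between KRT15 and KRT9, both at -0.07. KRT7 stands between KRT80, at -0.09, and KRT86, which is not analysed here. KRT18 ends its cluster beside KRT8, which was at -0.18 with separated groups.

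**Figure D3:**
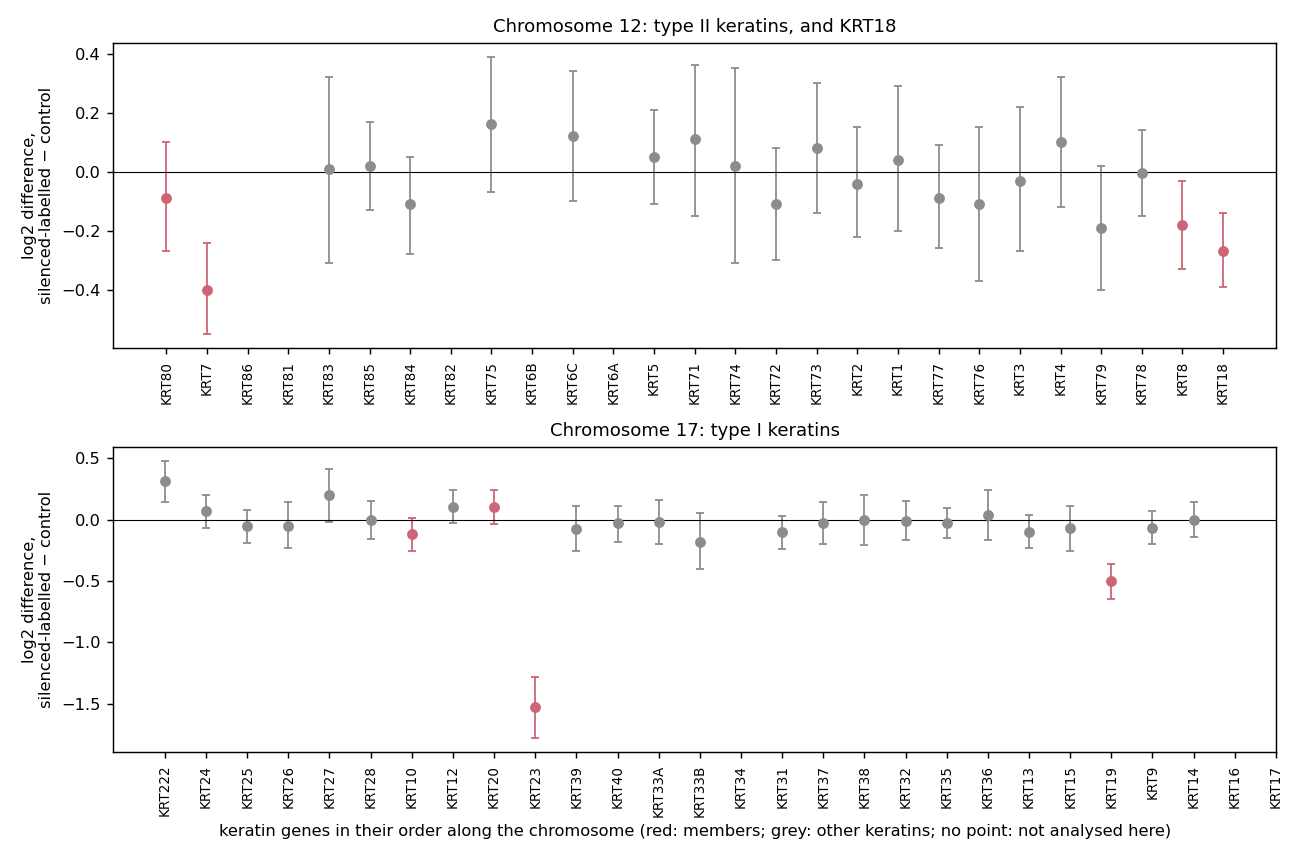
Log2 difference between silenced-labelled and control arrays (vertical axis, with 95% intervals from limma) of keratin genes in their RefSeq order along chromosome 12 (top) and chromosome 17 (bottom); members are red and other keratins grey, and genes with no point are not analysed here. KRT7, KRT8 and KRT18 at the ends of the upper cluster and KRT19 and KRT23 in the lower one lie below 0, while most grey intervals include 0.

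The 39 other measured keratins, most of them chains of stratified epithelium or hair, had a median log2 difference of -0.009. Of all genes 7.14% passed as higher and 6.19% as lower, and 4467 of 18132 had an unadjusted p under 0.05. Of the 39, 1 passed the threshold, as higher, and none as lower (0 of 39 in limma, with 1 of 39 at an unadjusted p under 0.05 in either direction). That gene was KRT222, a shortened type I keratin gene, which was at -0.287, -0.394 and -0.373 in control and at 0.058, -0.196 and 0.000 in silenced-labelled arrays. The rise was 0.31 log2 units (SE 0.075, limma adjusted p = 0.028). It no longer passed on leaving out control replicate 2, control replicate 3, silenced replicate 1 or silenced replicate 3, with rises from 0.25 to 0.29, and the rise was 0.50 with its most variable probe set. KRT5, KRT14 and KRT1, taken from the list of stratified epithelium markers, had log2 differences of 0.05, 0.000 and 0.04. The difference between the members and the other keratins was not tested, since the members were chosen on this contrast.

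Transcripts of some proteins that link keratin filaments to junctions were also lower. Among 12 measured genes of filament linkers 3 passed as lower and 1 as higher, where 6.19% and 7.14% of all genes did. That left 8 that did not pass, and the median log2 difference of the list was -0.051. DSP, which encodes desmoplakin, the desmosomal anchor of keratins, was between 0.253 and 0.378 in control and between -0.150 and -0.063 in silenced-labelled arrays, and fell by 0.43 (SE 0.058, limma adjusted p = 0.0014). PPL, the gene of periplakin, fell by 0.37 (SE 0.057, limma adjusted p = 0.0028), with a log2 difference of -0.67 for its most variable probe set and -0.56 for its specific probe sets. PLEC, which encodes the cross-linker plectin, fell by 0.31 (SE 0.053, limma adjusted p = 0.0048). The higher gene was JUP, which encodes plakoglobin, with a rise of 0.22 (limma adjusted p = 0.025) that was lost on leaving out any array but control replicate 1. JUP was named after its value was seen.

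Among 15 other intermediate filament genes 4 passed as lower and none as higher (0 in limma), where 6.19% and 7.14% of all genes did. That left 11 that did not pass, and the median log2 difference of the list was -0.076. NES, the gene of nestin, a filament protein of progenitor cells, was at 0.510, 0.665 and 0.747 in control and at -0.612, -0.828 and -0.595 in silenced-labelled arrays. Its fall was the largest of this list (log2 difference -1.32, SE 0.085, limma adjusted p = 2.4e-05). LMNA, the gene of the nuclear lamins A and C, fell by 0.41 (SE 0.053, limma adjusted p = 0.001). VIM, which encodes vimentin, the mesenchymal counterpart of the keratins, fell by 0.31 (SE 0.054, limma adjusted p = 0.0052). For VIM, as for KRT8 and KRT18, each silenced-labelled array lay below each control array.

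**Figure D4:**
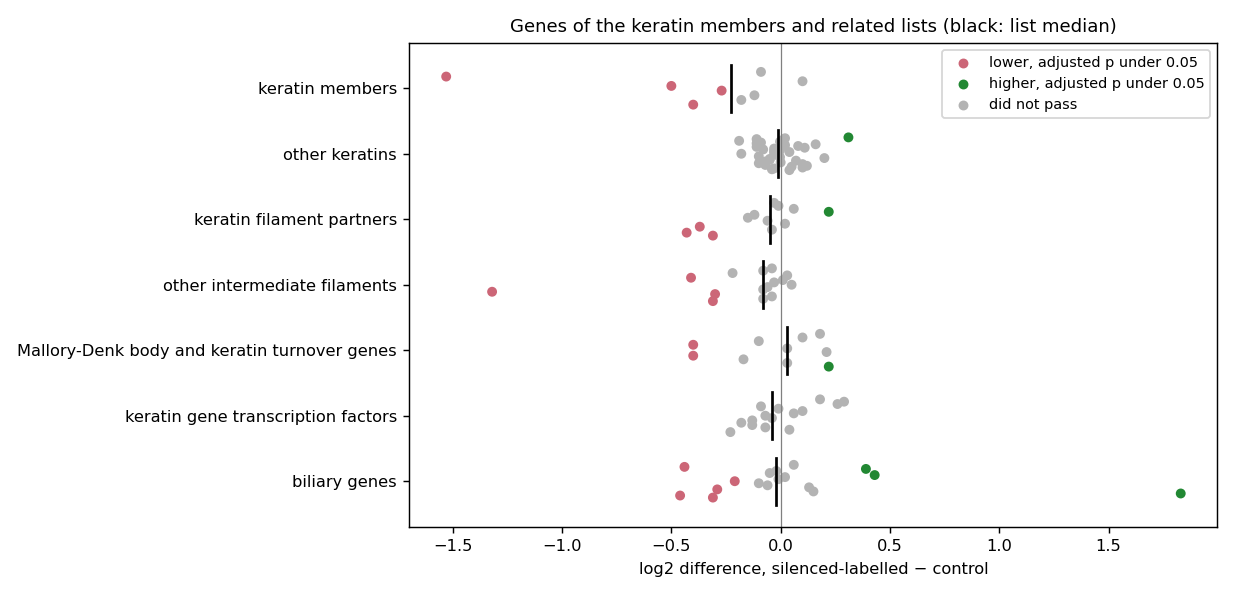
Log2 difference between silenced-labelled and control arrays (horizontal axis) of each measured gene of the keratin members and of 6 related lists (rows); red and green points passed an adjusted p under 0.05 as lower and higher, grey points did not, and the black bar is the list's median. The members' median is -0.223, and the medians of the other lists lie between -0.076 and 0.034.

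Keratins 8 and 18 form Mallory-Denk bodies, the inclusions of injured hepatocytes, together with ubiquitin and p62. Of 10 measured genes of these inclusions and of keratin binding and turnover, 1 passed as higher and 2 as lower, leaving 7 that did not pass (median log2 difference 0.034), where 7.14% and 6.19% of all genes passed in these directions. SQSTM1, the gene of p62, rose by 0.22 (SE 0.054, limma adjusted p = 0.029). It still passed without control replicate 2 and no longer passed on leaving out any other single array, with rises from 0.19 to 0.22, and the rise was 0.35 with its most variable probe set. HSPB1, which encodes a small heat shock protein, fell by 0.40 (SE 0.063, limma adjusted p = 0.0031), and SFN, the gene of an epithelial 14-3-3 protein, also fell by 0.40 (SE 0.066, limma adjusted p = 0.0038).

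None of 15 measured transcription factors known to act on keratin genes passed the threshold (0 in limma, with 6 at an unadjusted p under 0.05). Of all genes 13.3% passed, and 4467 of 18132 had an unadjusted p under 0.05. The log2 differences of the factors ran from -0.23 for KLF4 to 0.29 for NFE2L2. Without control replicate 1 both of these passed, KLF4 only just (limma adjusted p = 0.05 after rounding) and NFE2L2 with a limma adjusted p of 0.016. Without control replicate 2 CDX2 passed, with a log2 difference of 0.37 (limma adjusted p = 0.026). These 3 genes were chosen after their values were seen.

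Other genes of bile duct epithelium moved in both directions. Among 17 measured genes 5 passed as lower and 3 as higher, where 6.19% and 7.14% of all genes did. That left 9 that did not pass, and the median log2 difference of the list was -0.024. EPCAM, a surface protein of biliary and progenitor cells, was at -0.120, 0.000 and 0.232 in control and at -0.405, -0.632 and -0.229 in silenced-labelled arrays. It fell by 0.46 (SE 0.116, limma adjusted p = 0.031), which no longer passed on leaving out control replicate 2, control replicate 3, silenced replicate 1 or silenced replicate 2. JAG1, the gene of a Notch ligand, fell by 0.44 (SE 0.059, limma adjusted p = 0.0014). SPP1, which encodes osteopontin, rose by 1.83 (SE 0.066, limma adjusted p = 8.7e-07). The count of 8 changed genes was 4 without any single array other than control replicate 1 and 6 without that one.

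Of the markers of hepatocytes 4 of 8 passed as higher, where 7.14% of all genes did, with APOA1 at a log2 difference of 1.14. None passed as lower (0 of 8 in limma), although TF, the gene of transferrin, had fully separated groups at a log2 difference of -0.19 (unadjusted p = 0.012, limma adjusted p = 0.075). The short list of biliary markers held 4 measured genes, and all 4 passed as lower, where 6.19% of all genes did. Of these, KRT7 and KRT19 were chosen on this contrast, the calls of SOX9 and EPCAM were lost on leaving out single arrays, and the 17 biliary genes described before them included 3 higher ones, SPP1, SOX4 and CD44. Of 6 fibroblast markers COL1A2 alone passed, as higher, with a log2 difference of 0.55, and the median of these markers was 0.021. COL1A1 had fully separated groups in the other direction, at a log2 difference of -0.08 (limma adjusted p = 0.44). None of 4 endothelial and 5 leukocyte markers passed (0 of each in limma), where 13.3% of all genes passed in either direction. At an unadjusted p under 0.05, no endothelial marker was called and 1 leukocyte marker was, CD68, at a log2 difference of -0.21. Their part in the keratin differences was not tested.

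The 5 genes outside the family whose pattern over the 6 arrays was most like that of KRT23, by root mean square distance after subtracting each gene's mean, were IGFBP3, CAVIN1, EMP3, CRIP1 and INHBB. Their distances were 0.086, 0.098, 0.106, 0.116 and 0.118 log2 units. For KRT19 they were POLE3, CTSS, GINS1, SHMT2 and SFT2D1, with distances of 0.014 to 0.028 log2 units. With 2 groups of 3 arrays such likeness rests mainly on a similar difference between the groups, which was between -1.67 and -1.48 for the first 5 genes and between -0.53 and -0.50 for the second 5.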

How the data were processed

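The deposited table holds the authors' log2 values from RMA (background correction, quantile normalisation and summary per probe set), named without a version in the submitters' processing notes. The values are centred per probe set, and each array has a median of 0. The centring and the log base are read from the values and from RMA's usual output. How many arrays the centre was taken over is not given in the sources used here. It was not the mean or median of the 6 arrays for every probe set. A KRT18 probe set was between 0.248 and 0.268 in control arrays and between -0.044 and 0.001 in silenced-labelled arrays. Of 49395 probe sets 102 controls were left out. Genes were named by the platform annotation, 44988 probe sets with 1 symbol, 1832 with several and 2473 with none here, and a gene's value was the mean of its probe sets. No filter on low values was possible. Gene order came from RefSeq (GRCh38.p14). Group differences over all 6 arrays were fitted with limma 3.58.1 in R 4.3.3 (lmFit, eBayes, Benjamini-Hochberg over all genes) and the script was tested on simulated data. SE is limma's moderated standard error. The precision is limited by 3 arrays per group. Members, lists and alternatives were chosen with earlier results of these data known. Named were all measured members, KCNN4, VIM, up to 3 genes per list with the largest changes past the threshold, and the 5 genes most like each of the 2 members with the largest differences. Genes named beyond this rule are JUP, KLF4, NFE2L2, CDX2, SOX9, SOX4, CD44 and the cell type markers, keratins in gene order and keratin pseudogene or antisense transcripts given with values; apart from the keratins in gene order and these relatives, they were chosen after their values were seen. Alternatives left out each array, blocked on the replicate number, or changed the value per gene, the probe sets, the scaling or the eBayes step.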

Additional observations from a re-analysis of the deposited data

How the results depend on the processing

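The 8 measured keratins kept the sign of their difference under all 13 alternatives that applied to them (14 for KRT20), and the 4 that passed the threshold did so under each, except KRT18, whose log2 difference of -0.26 with the most variable probe set had an adjusted p of 0.069 in limma. KRT23 ranged from -1.67 to -1.45, KRT19 from -0.55 to -0.47, KRT7 from -0.44 to -0.35 and KRT18 from -0.28 to -0.24. KRT80 reached from -0.18 without control replicate 2 to -0.01 without control replicate 3. Probe sets called specific here are those whose names carry no mark such as a or x, which is a rule on names only. Keeping these alone left out every probe set of KRT7, KRT18, KRT19 and KRT23, so their calls were not checked in this way. The probe sets of KRT7, KRT19 and KRT23 carry the mark a. They lack the mark x, which is given to probes that can match other transcripts. With this kind only, fewer were tested. Of all genes 570 of 8324 passed the threshold, of all probe sets 737 of 11849, and of the members 0 of 1 (KRT20). Of member probe sets 0 of 1 passed, and of other keratins 0 of 24. Among the related lists 1 of 4 filament linkers, 2 of 7 other intermediate filament genes and 1 of 4 genes of Mallory-Denk bodies passed. For transcription factors it was 0 of 9 and for biliary genes 2 of 9. Genes without such a probe set were not measured here, so a smaller count is not by itself a lost call. Quantile normalization of the deposited values left 0 other keratins. The replicate numbers did not pair the arrays (correlations of deviations of same-numbered arrays of -0.096, -0.069 and -0.040), and no array correlated best with its own number. The highest correlations were 0.373 for control 1 with silenced 2, 0.381 for control 2 with silenced 3 and 0.381 for control 3 with silenced 1. A pairing across numbers was not fitted. With a replicate block 2065 genes, 4 members and 3 of the 16 member probe sets passed, against 2418, 4 and 5 without it, and of the genes named by rule SQSTM1 alone lost its call (log2 difference 0.22, limma adjusted p = 0.077). Leaving out each array in turn gave 3252 to 4592 probe sets against 5261, 3 to 4 member probe sets, 0 to 1 other keratins, 0 to 2 transcription factors and 4 to 6 biliary genes. Of these, the member probe sets numbered 4 without control replicate 1 and 3 without any other single array. Signal over background is unknown here, since centring removed it.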

Other observations

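Transcripts named as relatives of the keratins were read by further probe sets. The probe set of KRT18P55, a pseudogene of KRT18, was at 0.120, 0.204 and 0.246 in control and at -0.143, 0.022 and 0.000 in silenced-labelled arrays, a log2 difference of -0.23 that did not pass (limma adjusted p = 0.087). It is of the kind marked x, so its signal and that of KRT18 may overlap. The probe sets of the KRT17 pseudogenes KRT17P2 and KRT17P5 had log2 differences between -0.02 and 0.15, and none passed (limma, adjusted p between 0.65 and 0.97). The antisense transcript KRT10-AS1 was read by a pair of probe sets that differed from each other, at -0.33 (limma adjusted p = 0.065) and -0.03 (limma adjusted p = 0.9).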
